A study of Homo sapiens with 15 samples.

Results

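WFIKKN2, UVSSA, ABR, SCG3, RAB7L1 and LOH12CR2 are 6 genes of human HEK293FT cells in a CRISPR activation experiment with a non-targeting control. Each has a row that was called in the same direction in all 4 comparisons with that control. For UVSSA and ABR it is a short row inside a longer row that was not called in all 4. The genes were chosen by symbol from the authors' deposited table, which lists 11230 rows. Because ABR has 2 rows, 7 rows carry one of the 6 symbols. One row of each symbol, 6 in all, was called alike, and these belong to 38 rows called alike in all 4 comparisons, of which 30 were higher (0.267% of the listed rows) and 8 lower (0.0712%). A row counts as called at an authors' adjusted p under 0.05. Direction, fold change and adjusted p against control chose these genes, so their values against control are given as a description with no test.

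HEK293FT is a fast-growing subclone of a human embryonic kidney line that carries the SV40 large T antigen. The groups are named by library title: trex0108 (target label TrEx108), trex4039 (TrEx4039), trex5008 (labelled as targeting TrEx8168), trex8168 (labelled as targeting TrEx5008) and control, with 3 libraries each from biological triplicates. The titles and target labels of trex5008 and trex8168 disagree, and the conflict was not settled here. All cells, control included, were transiently transfected with plasmids for 5 guide RNAs, for dCas9-VP64 (a Cas9 that binds without cutting, fused to an activator) and for a fusion of MS2, p65 and HSF1; they received puromycin at 2 ug/mL at 24 hours and were harvested at 48 hours. The guides lay 50 to 450 bp upstream of the start of the targeted long non-coding RNA, or matched no target in control. All 4 target groups were compared with the same 3 control libraries, so a change shared by the target groups and a shift of the control libraries cannot be told apart here.

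Transcription-coupled repair removes lesions that stall RNA polymerase II, and UVSSA is one of its recruiting factors. WFIKKN2 is a secreted protein that binds myostatin and GDF11, and ABR is a protein related to BCR. SCG3 is a granin, a protein that packs hormones into dense-core granules; RAB7L1, now named RAB29, is a small GTPase of the trans-Golgi network and lysosome that recruits the kinase LRRK2; LOH12CR2 is a non-coding gene.

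The values below are authors' mean normalised counts from the deposited table, 1 mean of 3 libraries per group, without a spread and not scaled for length, so they are compared between groups and not between genes. Depth is unknown. In bulk RNA, fewer cells of a kind and less RNA per cell cannot be told apart. Of the kidney epithelial, neuronal, neuroendocrine and fibroblast markers looked for, the table lists 3 of 7, 1 of 10, 2 of 6 and 2 of 5; every listed row has at least 1 comparison with an adjusted p under 0.1, so the table says nothing of the level of an unlisted marker. LHX1 and PAX2, kidney progenitor factors, stood at 422 and 392 in trex0108, 386 and 300.3 in trex4039, 369 and 282 in trex5008 and 365 and 373 in trex8168, against 450 and 369 in control; LHX1 was called lower in trex4039, trex5008 and trex8168, and PAX2 in trex4039 and trex5008. KRT8, a keratin, stood at 4849 in trex0108, 4002 in trex4039, 4356 in trex5008 and 5013 in trex8168, against 4548 in control, and was not called.

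**Figure D1:**
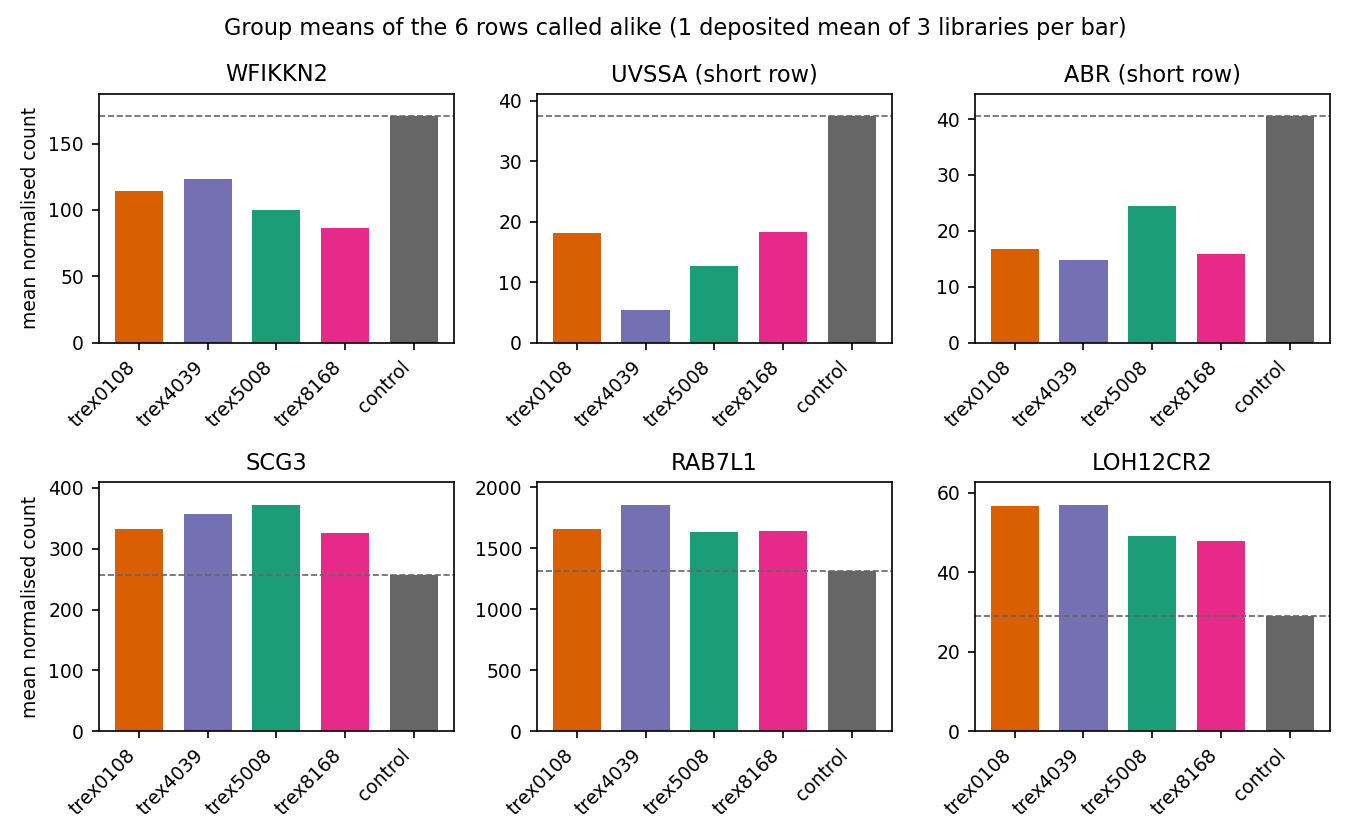
Mean normalised count (y axis, linear, from 0) of the 6 rows called alike in the 4 target groups and control (x axis); each bar is 1 deposited mean of 3 libraries, with no error available, and the dashed line marks the control mean. WFIKKN2 and the short UVSSA and ABR rows lie below control in all 4 target groups, and SCG3, RAB7L1 and LOH12CR2 lie above it.

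WFIKKN2 (chromosome 17, 48912228 to 48919777, hg19) was lower than control in all 4 comparisons of the authors' deposited table. Its mean was 115 in trex0108, 123 in trex4039, 100.3 in trex5008 and 86.5 in trex8168, against 171 in control. The target groups thus held 50.7% to 72.2% of the control mean, with trex8168 lowest and trex4039 nearest to control. The deposited log2 fold changes, which are smaller in size than the log2 ratios of the means, were -0.45, -0.37, -0.60 and -0.74 in the same order of groups, with adjusted p of 0.00941, 0.00767, 1.56e-05 and 4.43e-07. Among listed rows with an adjusted p, 0.249% were called lower in trex0108, 33.7% in trex4039, 24.3% in trex5008 and 6.45% in trex8168.

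The WFIKKN2 row lies wholly inside a row named TOB1 (48909743 to 48945339), an antiproliferative gene. TOB1 had means of 2470 in trex0108, 2010 in trex4039, 1901 in trex5008 and 2113 in trex8168, against 2193 in control. In the authors' deposited table it was called in trex5008 alone (log2 fold change -0.20, adjusted p 0.00580), and trex0108 stood at 0.16 (adjusted p 0.197). The sources used here do not say how reads were divided between overlapping rows. The other listed rows within 200 kb were SPAG9 and ANKRD40. In the authors' deposited table SPAG9 was called higher in trex4039 and trex5008, with log2 fold changes of 0.20 and 0.16, and ANKRD40 in trex4039, with 0.12.

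The 250 bases before the first RefSeq start of WFIKKN2, chr17:50834334-50834583 on the plus strand of GRCh38.p14, are shown because the WFIKKN2 row, unlike the other 2 lower rows, is about as long as its gene (7550 against 7699 bases). Searched on both strands, they do not hold TATAAA, the core of the box near the start of many regulated genes, which 10.7% of 35116 RefSeq upstream windows of 250 bases hold. They also lack the CCAAT box, which 32.0% of these windows hold, and GGGCGG, the binding letters of the factor SP1, which 42.6% hold. The E-box of MYC-type factors (CACGTG) and the heat shock element pair GAANNTTC, found in 6.34% and 5.78% of windows, were not matched either, nor were the ZNF143 motif or the RE1 element described with the next genes. The WFIKKN2 window holds 2 CG pairs, against a median of 11.
WFIKKN2: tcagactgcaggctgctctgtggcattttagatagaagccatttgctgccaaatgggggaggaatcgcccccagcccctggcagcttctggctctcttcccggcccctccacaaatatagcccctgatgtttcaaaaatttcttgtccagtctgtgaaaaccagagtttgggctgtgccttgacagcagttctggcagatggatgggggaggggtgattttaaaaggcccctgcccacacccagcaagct

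The other genes of the myostatin and activin pathway were called in both directions. Of 31 genes in the list, 12 were listed. In trex0108, 1 was higher and 0 were lower, with a median deposited log2 fold change of 0.01 against 0.02 over all listed rows. In trex4039, 2 were higher and 6 lower (median -0.17, all rows 0.03), in trex5008 2 and 5 (median -0.11, all rows 0.02) and in trex8168 0 and 1 (median 0.02, all rows 0.04). Of listed rows with an adjusted p, 5.65% were called higher and 0.249% lower in trex0108, and 37.1% and 33.7% in trex4039. These shares were 29.8% and 24.3% in trex5008 and 14.6% and 6.45% in trex8168. The latent TGF-beta binding genes LTBP4 and LTBP3, which hold ligands in the matrix, were among the 3 taken by the rule for named genes. LTBP4 had means of 1637 in trex0108, 931 in trex4039, 1159 in trex5008 and 1542 in trex8168, against 1801 in control, and was called lower in 3 comparisons. LTBP3, called lower in 2, stood at 2808, 1800.3, 2159 and 2860.4 in the same groups, against 3084.5 in control. TGFB1, a ligand of the family, was called lower in trex4039 and trex5008, with 1852 and 2025 against 2411 in control.

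The row named UVSSA is not the whole gene. It spans 2562 bases (chromosome 4, 1365752 to 1368313, hg19), whereas UVSSA covers 48727 bases in GENCODE release 29. It lies inside an unnamed protein-coding row, XLOC_046167, of 50287 bases (1339494 to 1389780), and takes up 5.09% of its length. The short row had means of 18.1 in trex0108, 5.46 in trex4039, 12.6 in trex5008 and 18.2 in trex8168, against 37.4 in control. Its level was lowest in trex4039, at 14.6% of control, and the trex0108 and trex8168 means were 48.3% and 48.7% of control. The deposited log2 fold changes were -0.46, -0.84, -0.61 and -0.46, with adjusted p of 0.0356, 5.87e-09, 7.78e-05 and 0.0130.

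The long row around it was not called in trex0108. XLOC_046167 had means of 1066 in trex0108, 771 in trex4039, 857 in trex5008 and 868 in trex8168, against 1090.5 in control. In the authors' deposited table it was called lower in trex4039, trex5008 and trex8168, with log2 fold changes of -0.46, -0.32 and -0.30, while trex0108 stood at -0.03 (adjusted p 0.999). The mean of the short row was 1.70%, 0.707%, 1.47% and 2.10% of that of the long row in the 4 target groups, against 3.43% in control. CATG00000071579.1, which overlaps the long row and lies 24333 bases from the short one, stood at 75.3, 40.7, 54.5 and 57.9 in the target groups, against 77.0 in control, and was called lower in trex4039 and trex5008. MAEA, a subunit of a ubiquitin ligase, had 4137, 3371, 3593 and 4299, against 3924 in control, and was called lower in trex4039 and trex5008 too.

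Of 40 genes of nucleotide excision repair, 20 were listed, and calls in both directions were made in trex4039 and trex5008. In trex0108 0 were higher and 0 lower (median deposited log2 fold change 0.06, all listed rows 0.02). In trex4039 12 were higher and 6 lower (median 0.18), in trex5008 13 and 4 (median 0.20) and in trex8168 7 and 0 (median 0.12). Among listed rows with an adjusted p, 37.1%, 29.8% and 14.6% were called higher in these 3 comparisons and 33.7%, 24.3% and 6.45% lower. In trex0108, 5.65% were called higher and 0.249% lower. TCEA1, an elongation factor that helps stalled polymerase resume, had means of 4564 in trex0108, 5999 in trex4039, 5447 in trex5008 and 5113 in trex8168, against 4220.4 in control, and was called higher in the last 3 target groups. The damage sensor subunit gene CETN2 and the ubiquitin ligase scaffold gene CUL4B were called higher in the same 3 groups. CETN2 stood at 1321 in trex0108 and at 1562, 1491 and 1599.7 in the others, against 1221 in control. CUL4B stood at 4375, 5169.7, 4710.0 and 4560.6, against 4065 in control.

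ABR has 2 rows, and the row called alike is again the short one. It spans 8492 bases (chromosome 17, 1067751 to 1076242, hg19) and lies inside the long ABR row of 229824 bases (903193 to 1133016), of which it takes up 3.69%. The gene covers 226221 bases in GENCODE release 29. The short row had means of 16.9 in trex0108, 14.8 in trex4039, 24.5 in trex5008 and 15.9 in trex8168, against 40.5 in control. The means of trex0108, trex4039 and trex8168 lay close together at 36.5% to 41.6% of control, and that of trex5008 stood nearer to control at 60.5%. The deposited log2 fold changes were -0.54, -0.60, -0.35 and -0.57, with adjusted p of 0.00523, 1.09e-04, 0.0409 and 0.00167.

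The long ABR row was not called alike. Its means were 4375 in trex0108, 3559 in trex4039, 3396 in trex5008 and 3981 in trex8168, against 3983 in control. It was called lower in trex4039 and trex5008, with deposited log2 fold changes of -0.16 and -0.22 and adjusted p of 0.0275 and 0.00122. In trex0108 it stood at 0.13 (adjusted p 0.479), with a mean above control, and the trex8168 mean was 99.9% of control. The short row's mean was 0.385%, 0.416%, 0.722% and 0.40% of the long row's in the target groups, against 1.02% in control. Neither long row was called lower in all 4 comparisons, as the short rows inside them were. Those calls chose the short rows, and 0.0712% of listed rows were called lower in all 4, so nothing is read from the contrast. Rows nested in a longer row make up 13.4% of the table (1504 of 11230) and 4 of the 38 rows called alike.

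**Figure D2:**
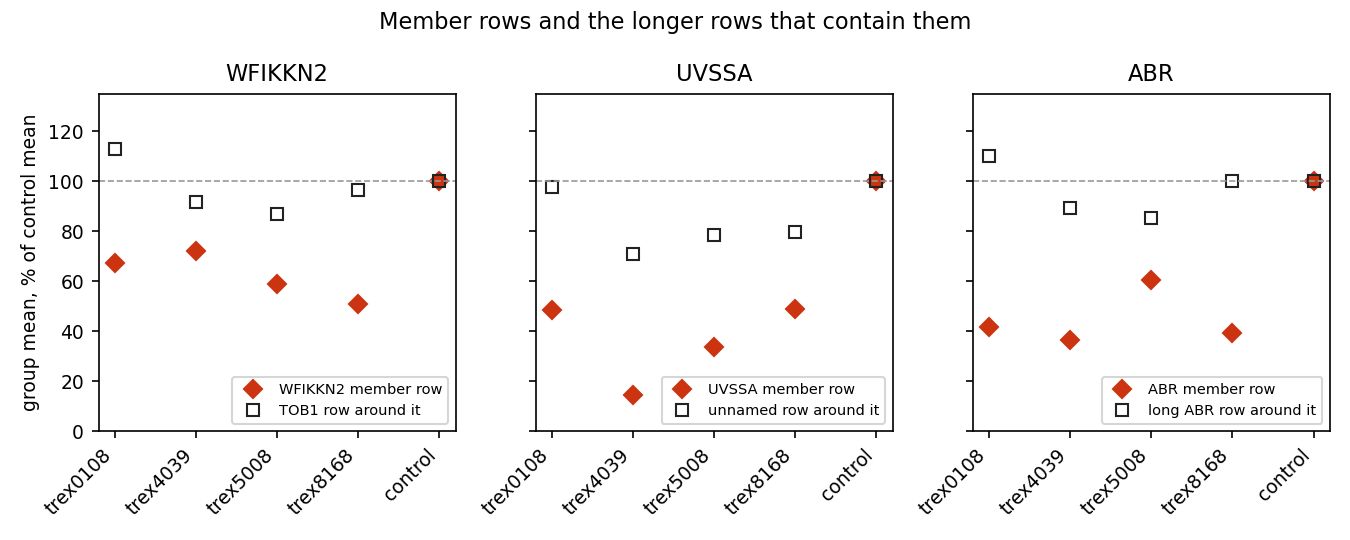
Group mean as a percentage of the control mean (y axis, linear) for 3 member rows (filled diamonds) and the longer row of the table that contains each (open squares), in the 4 target groups and control (x axis). The diamonds lie at 14.6% to 72.2% in the target groups; the squares of ABR and TOB1 lie on either side of 100%, and the unnamed row around UVSSA stays near control in trex0108.

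SCG3 (chromosome 15, 51973613 to 52014711, hg19) was higher than control in all 4 comparisons of the authors' deposited table. Its mean was 333 in trex0108, 356 in trex4039, 372 in trex5008 and 325 in trex8168, against 257 in control. The target means lay between 127% and 145% of control and differed from each other by less than the lowest of them differed from control. Its log2 fold changes in that table were 0.32, 0.40, 0.46 and 0.29, with adjusted p of 0.0487, 2.05e-04, 3.37e-05 and 0.0318. The adjusted p in trex0108 lies just inside the threshold of 0.05.

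The last 1534 bases of the SCG3 row overlap the row of LYSMD2. LYSMD2 had means of 127, 160.1, 174 and 158 in the 4 target groups, against 131 in control, and was called higher in trex5008 alone, with a deposited log2 fold change of 0.32. In trex0108, where SCG3 was higher, LYSMD2 stood at -0.03. Farther along, TMOD3, an actin filament capping gene, and XLOC_020761 were called higher in trex4039 and trex5008, and DMXL2 in trex5008. Of the 18 nearest listed rows around the 6 members, 0 were called in all 4 comparisons and 1, the long row around UVSSA, in 3; with 0.267% of listed rows called higher in all 4 and 0.0712% lower, a count of 0 among 18 says nothing particular of these neighbours.

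The start region of SCG3 is shown in 2 stretches, from RefSeq on the plus strand of GRCh38.p14, because it holds letters of the RE1 element, found in few RefSeq windows. The first is the 250 bases before the start, chr15:51681253-51681502, with the only match of the searched letters, CCAAT on the opposite strand, in capitals. The second, chr15:51681511-51681536, begins 9 bases into the transcript and carries in capitals both arms of the RE1 element, the site of the neuronal gene repressor REST, which were looked for after the sequence was seen. The arms stand 8 bases apart, and both within 20 bases of each other occur in 5 of 35116 RefSeq windows of 300 bases (0.0142%). A match of letters is a description and not a measured binding site.
SCG3 upstream: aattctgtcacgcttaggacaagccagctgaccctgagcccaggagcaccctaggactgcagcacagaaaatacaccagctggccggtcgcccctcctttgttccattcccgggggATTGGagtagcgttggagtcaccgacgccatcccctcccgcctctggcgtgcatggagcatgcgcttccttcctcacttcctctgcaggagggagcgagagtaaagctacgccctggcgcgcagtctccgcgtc
SCG3 start: TTCAGCACCcacagggcGGACAGCGC

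Other genes of dense-core granules were called in both directions. Of 26 genes in the list 9 were listed, with 2 higher and 0 lower in trex0108 (median deposited log2 fold change 0.01), 2 and 4 in trex4039 (median -0.26), 1 and 3 in trex5008 (median -0.16) and 1 and 0 in trex8168 (median -0.01). Over all listed rows the medians were 0.02, 0.03, 0.02 and 0.04. Of those with an adjusted p, 5.65% were called higher and 0.249% lower in trex0108, and 37.1% and 33.7% in trex4039. These shares were 29.8% and 24.3% in trex5008 and 14.6% and 6.45% in trex8168. CPE, the peptide-trimming enzyme that binds SCG3 in granules, had means of 4249 in trex0108, 4792 in trex4039, 4591 in trex5008 and 4484 in trex8168, against 3936.5 in control, and was called higher in the last 3. RAB3A, a GTPase of secretory vesicles, was called lower in trex4039 and trex5008, with 168 and 183 against 239 in control. PCSK5, a proprotein convertase, was called higher in trex0108 and trex4039, with 823 and 719 against 622 in control. INSM1, a neuroendocrine transcription factor, stood at 85.3 in trex0108, 75.7 in trex4039, 78.4 in trex5008 and 90.3 in trex8168, against 107 in control, and was called lower in trex4039 and trex5008.

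RAB7L1 (chromosome 1, 205736635 to 205744594, hg19) had the lowest adjusted p values of the 6 in trex0108, trex4039 and trex5008. Its mean was 1656 in trex0108, 1859 in trex4039, 1637 in trex5008 and 1646 in trex8168, against 1319 in control. The means of trex0108, trex5008 and trex8168 were within 124% to 126% of control, and trex4039 was higher at 141%. The deposited log2 fold changes were 0.31, 0.47, 0.30 and 0.31, with adjusted p of 9.50e-06, 3.65e-14, 8.23e-06 and 2.94e-05. RAB7L1 and WFIKKN2 are the members with an adjusted p under 0.01 in all 4 comparisons. Its one listed neighbour within 200 kb, NUCKS1, a chromatin protein gene, had means of 23163, 25733, 24224 and 23263 in the target groups, against 21535 in control, and was called higher in trex4039 and trex5008.

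The 250 bases before the RefSeq start of RAB7L1, listed there as RAB29, lie at chr1:205775483-205775732 on the minus strand of GRCh38.p14. They are shown because they hold, in capitals, the motif of the zinc finger factor ZNF143, which was looked for on both strands after the sequence was seen. The motif stands at bases -79 to -68, counted from the start, and a second one on the opposite strand runs from 9 bases before the start to base 3 of the transcript (chr1:205775480-205775491). A single such match occurs in 0.746% of the 250-base windows, and at least 2 in 20 of 35116 windows of 300 bases (0.0570%). No data here bear on binding of ZNF143.
RAB7L1 upstream: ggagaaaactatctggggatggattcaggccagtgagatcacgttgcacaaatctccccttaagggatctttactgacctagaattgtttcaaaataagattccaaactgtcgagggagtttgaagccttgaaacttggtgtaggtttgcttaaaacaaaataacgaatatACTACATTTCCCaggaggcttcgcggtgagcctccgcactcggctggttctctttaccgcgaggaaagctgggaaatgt
RAB7L1 second motif: GGGAAATGTAGT

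Genes around LRRK2, retromer and trans-Golgi traffic were called in both directions in trex4039 and trex5008. Of 33 genes in the list 19 were listed, with 0 higher and 0 lower in trex0108 (median deposited log2 fold change 0.04), 11 and 4 in trex4039 (median 0.19), 10 and 3 in trex5008 (median 0.13) and 3 and 0 in trex8168 (median 0.08). All listed rows had medians of 0.02, 0.03, 0.02 and 0.04, and also leaned to higher calls. The shares over listed rows with an adjusted p were 5.65% higher and 0.249% lower in trex0108 and 37.1% and 33.7% in trex4039. They were 29.8% and 24.3% in trex5008 and 14.6% and 6.45% in trex8168. VPS35, the core retromer subunit, had means of 5878 in trex0108, 7263 in trex4039, 6781 in trex5008 and 6303 in trex8168, against 5516 in control. RAB6A, a Golgi GTPase, stood at 4211, 5013, 4642 and 4228, against 3757 in control, and RAB10, a GTPase that LRRK2 phosphorylates, at 4829.5, 6121, 5597 and 5257, against 4689 in control. All 3 were called higher in trex4039, trex5008 and trex8168 and not called in trex0108. RAB7L1 was called there, but that call chose it, so nothing is read from the contrast.

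LOH12CR2 (chromosome 12, 12508040 to 12510637, hg19) had the highest ratio to control among the 3 higher members. Its mean was 56.6 in trex0108, 56.9 in trex4039, 49.0 in trex5008 and 47.9 in trex8168, against 28.8 in control. The 4 target means were 166% to 197% of control and lay close to each other. The deposited log2 fold changes were 0.53, 0.54, 0.42 and 0.39, with adjusted p of 0.00783, 6.54e-04, 0.0126 and 0.0497. The value in trex8168 is the nearest to 0.05 of all rows called alike, and the next rows outside the threshold were XLOC_012483, EXO1 and XLOC_057857, with a highest adjusted p of 0.05004, 0.0506 and 0.0512.

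The table lists LOH12CR2 as protein-coding, whereas GENCODE release 29 gives it as a lincRNA of 1662 bases on the minus strand of chromosome 12. The row spans 2598 bases, so part of it lies outside the gene as given there. Its rise may therefore not be that of the lincRNA alone. In that annotation the start of LOH12CR2 lies 12 bases from the start of BORCS5, a lysosome positioning gene on the plus strand. Without the strand setting of the counting, reads of the pair near their adjacent starts cannot be told apart, and BORCS5 was not analysed here. The listed neighbours LRP6, a WNT co-receptor gene, and DUSP16, a MAP kinase phosphatase gene, had deposited log2 fold changes from -0.04 to 0.15, and DUSP16 in trex4039 was the one call among them, with 0.14 and an adjusted p of 0.0148.

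Whether control alone stood apart was measured with the gap, the distance on the log2 scale from the control mean to the nearest target mean, against the span, the distance between the highest and lowest target means. A gap above 0, seen in 60.2% of listed rows, is fixed by the choice of the members. For the 3 rises the gap exceeded the span: 0.34 against 0.19 for SCG3, 0.31 against 0.18 for RAB7L1 and 0.73 against 0.25 for LOH12CR2. For the 3 falls it did not: 0.47 against 0.51 for WFIKKN2, 1.04 against 1.74 for the short UVSSA row and 0.73 against 0.73 for the short ABR row, whose span was larger in the third decimal. Over the listed rows with no mean of 0, the gap exceeded the span in 3.25% (365 of 11220); rows called alike were chosen for distance from control, so nothing is read from the members' count against it.

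By the largest step between neighbouring groups, control was the group set apart in 5 of the 6 rows. Over the listed rows with no mean of 0, control was set apart by this step in 10.5% (1179 of 11220). The choice of the members favours a step at control, so the count is a description and nothing is read from it against that share. Among the 6 rows the short UVSSA row was the exception. Its largest step, 1.21, lay between trex4039 and trex5008, and the step to control was 1.04. Target groups also stood alone in the table by the earlier measure, gap against span, and not by the largest step. The distance of a single group exceeded the span of the other 4 groups in 3.97% of rows for trex0108 and 1348 of 11220 for trex4039. The share was 1.98% for trex5008 and 3.82% for trex8168, against 3.25% for control. By that measure control stood alone in 25 of the 38 rows called alike and a target group in 0, a count that the choice of rows shapes.

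**Figure D3:**
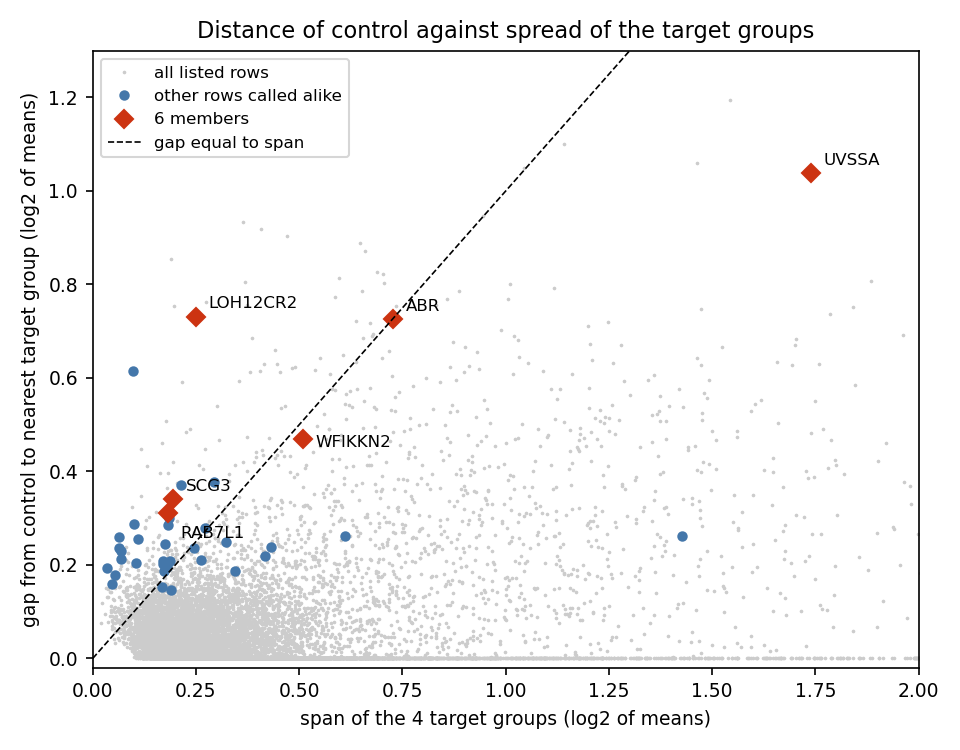
Gap from control to the nearest target group (y axis) against the span of the 4 target groups (x axis), each on the log2 scale of group means, for all listed rows (grey), the 32 other rows called alike (blue) and the 6 members (red); 208 rows lie outside the axes. SCG3, RAB7L1 and LOH12CR2 lie above the dashed line of equal gap and span, WFIKKN2 and ABR next to it and UVSSA below it.

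Between the means and the deposited fold changes, the gap moved by more than an approximate standard error for the short UVSSA and ABR rows and LOH12CR2. On the deposited log2 fold changes all 6 gaps exceeded their spans, with 0.46 for UVSSA, 0.35 for ABR and 0.39 for LOH12CR2. Over all listed rows the gap exceeded the span on that scale in 3.62% (407 of 11230). The choice of the members favours a large gap, so nothing is read from their count against it. The span also differed by scale, with 0.39 for UVSSA on the deposited fold changes against 1.74 on the means. With the GC trend of the listed rows removed, the gap was 0.19 against a span of 0.77 for WFIKKN2. The gap was 0.17 against 0.15 for SCG3, 0.23 against 0.16 for RAB7L1 and 0.59 against 0.32 for LOH12CR2. As the GC of the short UVSSA and ABR rows is not known, 4 of 6 members had a value, and as a check of the whole set this is void.

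Differences between target groups were computed for all 36 combinations of 6 members and 6 pairs of targets. They are differences of the fold changes that chose the members, with errors recovered from the same adjusted p, so their p values are a description and not an independent test. With the covariance from the shared controls set to 0, 0 of 36 passed an adjusted p of 0.05 and 4 had an unadjusted p under 0.05 (approximate Wald test, Benjamini-Hochberg adjusted over all rows called in both comparisons). Shared controls make this covariance positive, so a setting of 0 makes the errors too large. The 0 of 36 therefore does not show that the target groups were alike. Over all rows called in both comparisons, the share that passed was 1.27% for trex4039 and trex5008, 3.91% for trex5008 and trex8168, 19.7% for trex4039 and trex8168, and 29.8% to 48.2% for the 3 pairs with trex0108. With the covariance set to 0.5 of the product of the errors, which shared controls of equal size and spread would give, 6 of 36 passed. Over all rows called in both comparisons the share at that setting was 13.5% for trex4039 and trex5008, 9.67% for trex5008 and trex8168, 36.4% for trex4039 and trex8168, and 35.7% to 59.0% for the 3 pairs with trex0108.

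Those 6 differences, whose p values remain a description because the same fold changes chose the members, involved trex4039. With p recovered on the highest locus number in place of the number of listed rows, 7 passed, and the added one, WFIKKN2 in trex0108 against trex8168 (0.29, adjusted p 0.0363), did not involve it. The short UVSSA row was lower in trex4039 than in trex0108 and trex8168, by 0.39 on the deposited log2 scale in each pair, with adjusted p of 0.0129 and 0.0175 at the covariance of 0.5. At that covariance RAB7L1 stood higher in trex4039 than in trex0108, trex5008 and trex8168, by 0.16, 0.18 and 0.17. The adjusted p were 0.0137, 0.0292 and 0.0162 (approximate Wald test). WFIKKN2 stood nearer to control in trex4039 than in trex8168, with a difference of 0.37 and an adjusted p of 0.0138. At a covariance of 0 the lowest adjusted p of these genes were 0.104 for UVSSA, 0.108 for RAB7L1 and 0.144 for WFIKKN2.

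For the other members no difference between target groups passed in these settings. The largest was 0.25 for the short ABR row, 0.17 for SCG3 and 0.15 for LOH12CR2. The approximate 95% intervals at a covariance of 0 reached from -0.66 to 0.63 for ABR. For SCG3 they reached from -0.42 to 0.45 and for LOH12CR2 from -0.42 to 0.57. At a covariance of 0.5 they were narrower, from -0.54 to 0.51, from -0.34 to 0.37 and from -0.30 to 0.45 in that order. At either setting, differences between target groups as large as some of the changes against control were not resolved.

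**Figure D4:**
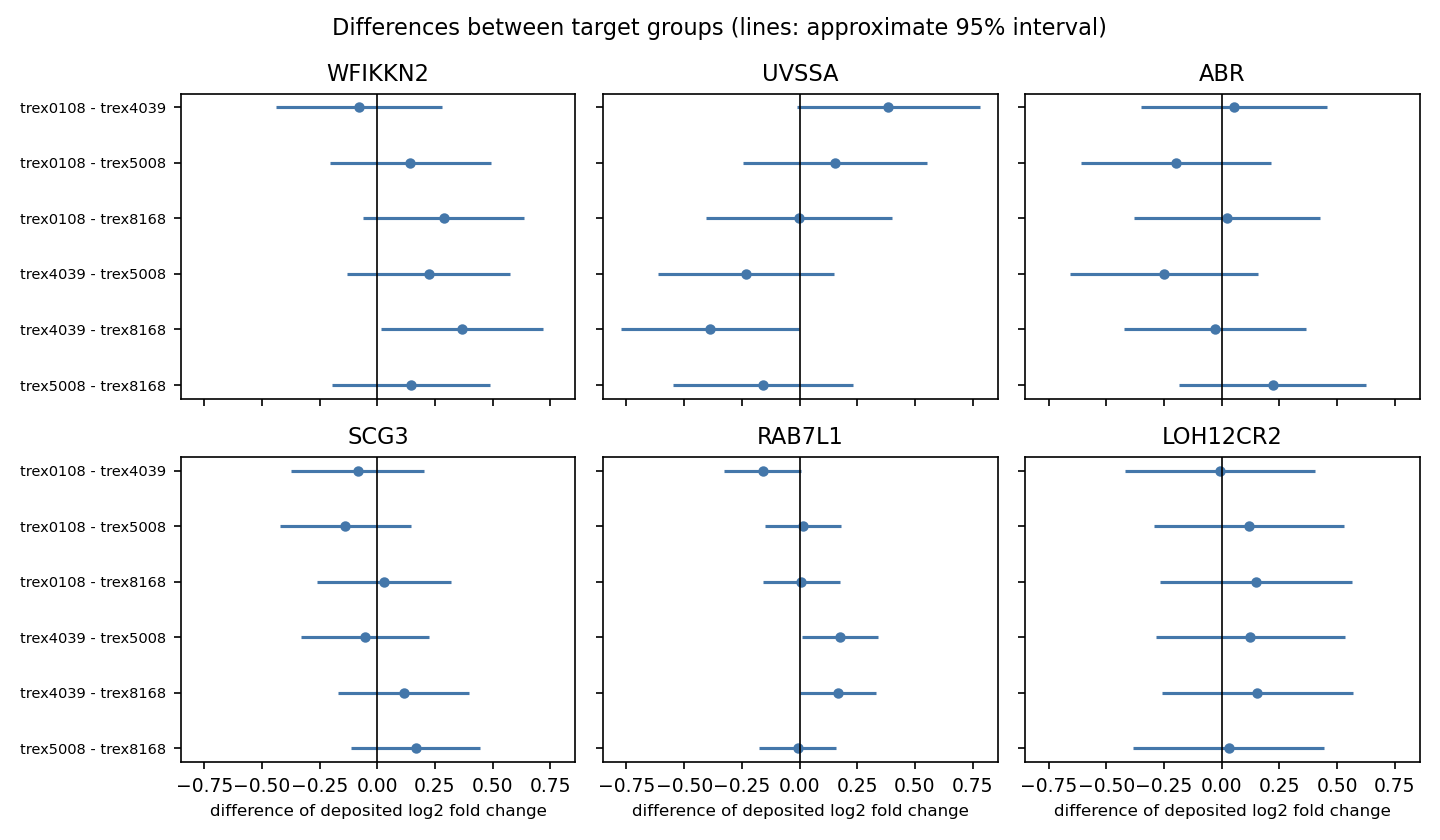
Difference of the deposited log2 fold change between target groups (x axis) for the 6 pairs of target groups (y axis), 1 panel per member; points are differences, first-named group minus the other, and lines the approximate 95% interval with the covariance from shared controls set to 0, before adjustment. Intervals of RAB7L1 are the narrowest, and those that leave 0 belong to pairs with trex4039. With shared controls, a covariance of 0 makes the intervals too wide.

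The rows closest in pattern to each member were those with the smallest Euclidean distance over the 4 log2 ratios to control, among 6608 named rows with a mean of at least 50 that were not called alike. All 6 rows closest to the 3 rises were pseudogenes, against 3.24% of the candidates. Leaving out the rows called alike shapes which rows remain as candidates, so nothing is read from this count. Reads can be split between a pseudogene and its parent gene, which was not tested here. The closest rows were HSPD1P1 and FTH1P10 for SCG3, NPM1P27 and PTMAP2 for RAB7L1, and RP11-51O6.1 and RP11-159C21.4 for LOH12CR2. The distances were 0.13 and 0.13 for SCG3, 0.06 and 0.09 for RAB7L1 and 0.39 and 0.45 for LOH12CR2. NPM1P27 had log2 ratios of means of 0.33 in trex0108, 0.44 in trex4039, 0.30 in trex5008 and 0.33 in trex8168, and was called in trex4039.

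The falls had more distant matches. PMS2P3, a pseudogene, and ANPEP, a membrane aminopeptidase gene, were closest to WFIKKN2 at 0.40 and 0.51. DDIT4, a stress-induced inhibitor of mTOR signalling, and the antisense RNA ASMTL-AS1 were closest to the short UVSSA row at 1.44 and 1.46. CRYBB2P1, a pseudogene, and PCGF3, a Polycomb subunit gene, were closest to the short ABR row at 0.92 and 1.05. DDIT4 had log2 ratios of -0.45 in trex0108, -1.65 in trex4039 and -0.68 in trex8168, and was called lower in trex4039, trex5008 and trex8168.

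Of the 38 rows called alike, the short UVSSA and ABR rows and LOH12CR2 are the only ones with an overall mean under 50. Among the 12 other named rows taken by the rule, the antisense RNA RP11-245P10.4 and SLC29A2, a nucleoside transporter gene, were lower. RP11-245P10.4 had means of 417, 357, 363 and 341 in the target groups, against 542 in control. SLC29A2 had 1649, 1080.0, 1356 and 1577, against 1977 in control, with trex4039 lowest.

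The other 10 were higher: EIF4HP1, a pseudogene; GDPD1, a phosphodiesterase gene; SNX3, a sorting nexin of endosomes; EIF1B; TSN, translin; RNF141; LINC01024; HDAC2, a histone deacetylase; GOLT1B, a Golgi traffic gene; and COX20, an assembly factor of cytochrome c oxidase. Apart from LINC01024 and GOLT1B their deposited log2 fold changes lay between 0.22 and 0.53. SNX3, which works with retromer, had means of 5588 in trex0108, 6344 in trex4039, 5859 in trex5008 and 5827 in trex8168, against 4584 in control. LINC01024 spread widely, with 1226 in trex0108, 614 in trex4039, 456 in trex5008 and 698 in trex8168, against 380.0 in control.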

How the data were processed

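PolyA RNA of 15 HEK293FT libraries was sequenced, 3 in each of 5 groups. The submitters' processing notes name DESeq2 1.14.1, DESeq, STAR 2.5.1b, Cufflinks, Bowtie2 2.2.1 and bedtools, and the builds GRCh37 and hg19, without saying which did what. The strand setting used when counting, in a directional kit, is unknown. The deposited signal columns hold the authors' mean normalised counts per group. The deposited log2 columns hold the authors' fold changes of each target group over control. The deposited p-value columns hold the authors' adjusted p, and the deposited score columns the authors' calls, which equalled an adjusted p under 0.1 with 0 mismatches. Without values per library, which were not analysed here, groups have no SD and a count model could not be used. Where a list gene has several rows, as LTBP3 does, the row with the highest mean stands for it.

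The 6 genes and all gene lists were chosen with earlier results of these data known. Gap and span were computed from the means (Python 3.11.15, pandas 2.3.3) and carry no test. Differences between target groups were tested approximately (scipy 1.17.1): standard errors came from the fold change and a raw p recovered from rank and adjusted p. Named genes are the members, up to 12 other named rows called alike, the 2 rows closest in pattern per member, the 4 nearest listed rows within 200 kb and 3 genes per list; the list for ABR is not reported here. The GC trend (lowess) used median transcript GC from GENCODE release 29. Upstream sequences are from RefSeq (GRCh38.p14), which held 5 of the 6 genes.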

Additional observations from a re-analysis of the deposited data

How the results depend on the processing

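Of 49 recomputed values, 34 stayed within their limit, 15 moved and 0 reversed. At an adjusted p under 0.01, 3 of the 7 rows with a member symbol were called in trex8168, against 6 at 0.05. Rows called alike numbered 57 higher and 24 lower at 0.1, and 11 higher and 4 lower at 0.01. Gaps moved by more than an approximate standard error in 9 cases. With a pseudocount of 10 they were 0.75 for UVSSA, 0.55 for ABR and 0.58 for LOH12CR2. On deposited log2 fold changes they were 0.46, 0.35 and 0.39. With the GC trend removed they were 0.23 for RAB7L1, 0.19 for WFIKKN2 and 0.17 for SCG3. With a covariance of 0.5, 6 differences between target groups passed, against 0. The short ABR row passed from a gap below its span to one above it with a pseudocount of 1 or 10 and with the median ratio set to 0. The cause of these moves was not tested. No alternative that leaves out a library was run, since values per library were not analysed here. No paired analysis was possible because the columns used carry no replicate numbers. Depth is unknown, and low means (UVSSA, ABR, LOH12CR2) carry the least counts.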
